A study of Mus musculus with 32 samples.

Results

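The hepatic response of young female mice to a high-fat diet (HFD) was examined in 8 RNA-seq libraries, which were taken from the 32 libraries of the series by their labels alone. They are the libraries with an F prefix whose labels give the female sex and feeding that started at 7 weeks of age. Livers F2.2, F2.3, F4.1 and F4.2 came from the HFD, with 60 kcal% fat, and livers F3.3, F3.4, F5.1 and F5.2 came from the low-fat diet (LFD), with 10 kcal% fat. All 8 mice were C57BL/6J, carried no allele or agent that the labels name, ate freely for 10 weeks and were killed in the fed state. The other 24 libraries are from females that started at 52 weeks and from males that started at 7 or 52 weeks, again on both diets. Values per library are given below in the order just used, the 4 HFD livers first. They are CPM, the counts of a gene over a common library total, scaled by TMM, a factor that evens out differences in RNA composition between libraries. PolyA RNA of whole liver was sequenced, so that fewer cells of a type and less RNA per cell cannot be told apart. The p-values of the young females measure the spread between livers within the groups of all 16 F libraries. Those of the females that started at 52 weeks are thus included.

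When fat enters the liver in excess of need, hepatocytes burn it, export it in lipoproteins or store it in droplets. Long-chain fatty acids cross the inner mitochondrial membrane as carnitine esters and are shortened by beta-oxidation, very long chains are shortened first in peroxisomes, and the acetyl-CoA that results feeds the citric acid cycle or the synthesis of ketone bodies. The nuclear receptor PPARalpha binds fatty acids and turns on much of this machinery. A diet poor in fat is rich in carbohydrate instead, which, with insulin and through the factors SREBP-1c and ChREBP, turns on the enzymes that make fatty acids anew.

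Depth was similar between the diets, with 33257215 to 43257459 counts in the HFD libraries and 34101263 to 36712812 in the LFD libraries. The labelled tissue and sex were borne out by Alb, the gene of serum albumin, at 74400 to 111000 CPM, and by Xist, the RNA of the silenced X chromosome, at 485 to 978 CPM in all 8 libraries. The LFD livers F3.4 and F5.2 stood apart from the other young livers. All 16 F libraries were placed by multidimensional scaling, which used for any 2 libraries the 500 genes that differed most between them. On its first dimension F3.4 and F5.2 lay at 2.05 and 1.83, against 0.02 to 0.96 for the other 6 young livers. The summed level of 44 genes with a known female bias in liver was 5900, 9280, 6140 and 6560 CPM on the HFD and 5410, 2850, 7260 and 3860 CPM on the LFD, lowest in this pair. Cyp3a41a, a female-specific cytochrome P450 with near-identical relatives, stood at 160, 258, 305 and 249 CPM on the HFD and at 183, 1.08, 364 and 1.56 CPM on the LFD. Sult3a1, a female-specific sulfotransferase, stood at 21.7, 34.5, 60.2 and 78.3 CPM on the HFD and at 49.7, 0.0751, 93.2 and 0.13 CPM on the LFD. Both genes were thus nearly silent in F3.4 and F5.2 and well expressed in F3.3 and F5.1, which share every label with them. Lpl, Col1a1 and Mki67, markers of lipid uptake, matrix and dividing cells, were highest in the same pair. The summed level of 33 cell cycle genes was 153 to 276 CPM on the HFD and 310, 587, 226 and 718 CPM on the LFD, and that of 17 stellate and fibroblast markers was 543 to 729 CPM on the HFD and 663, 1220, 567 and 992 CPM on the LFD. The labels give nothing that separates F3.4 and F5.2 from F3.3 and F5.1, and what sets them apart was not tested. Many results below are therefore also given without them, which leaves 2 LFD livers.

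**Figure D1:**
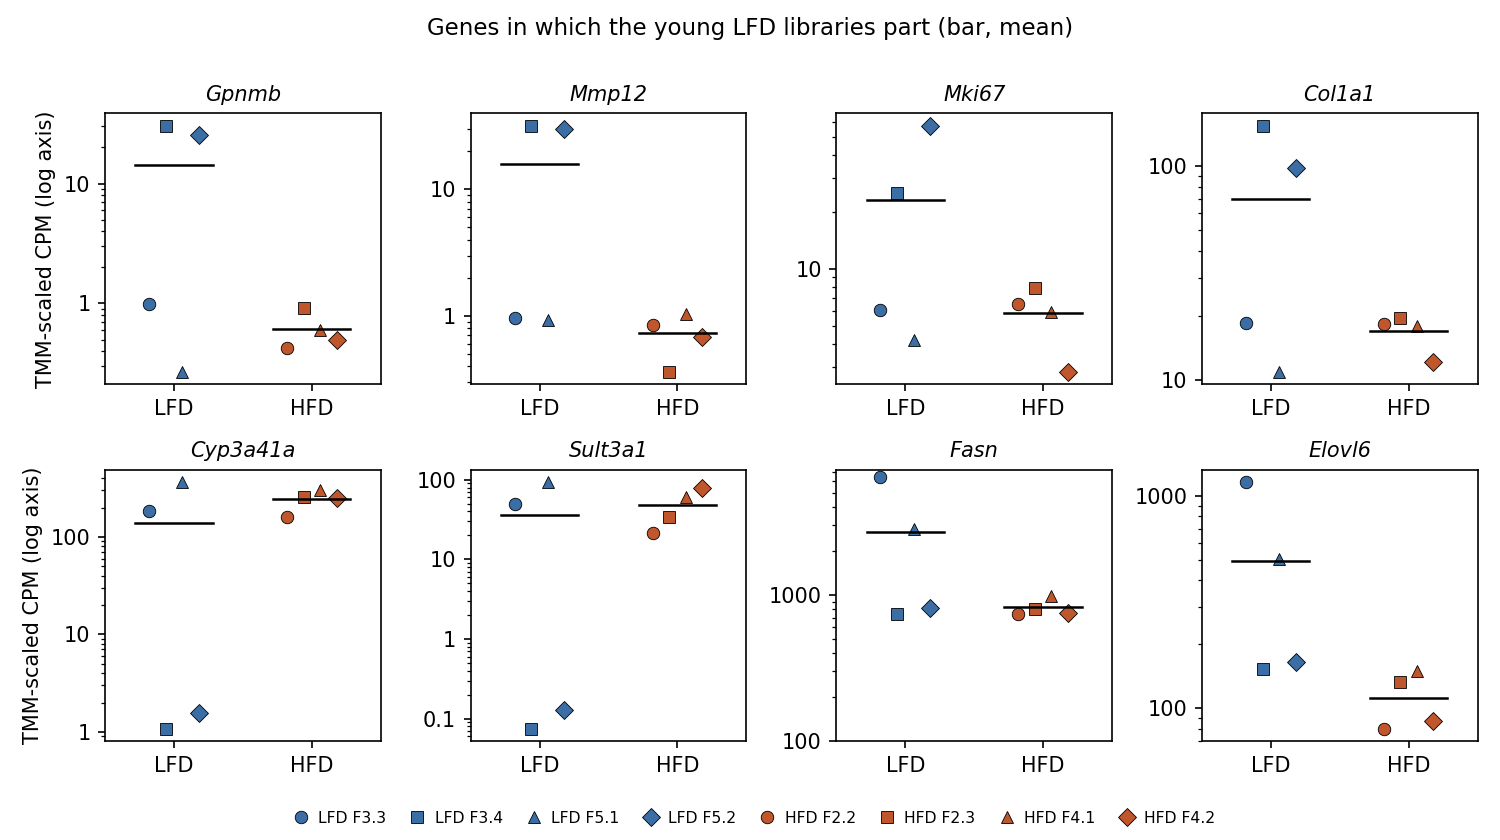
TMM-scaled CPM (log axis) of Gpnmb, Mmp12, Mki67, Col1a1, Cyp3a41a, Sult3a1, Fasn and Elovl6 in each of the 4 HFD and 4 LFD livers of young females. The LFD livers F3.4 and F5.2 lie above the others for the first 4 genes and far below them for Cyp3a41a and Sult3a1, while for Fasn and Elovl6 they lie at or near the HFD livers and F3.3 and F5.1 lie above.

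Of 15733 genes tested, 183 were higher on the HFD (1.16%) and 141 were lower (0.896%), together 324 (2.06%), at an edgeR adjusted p under 0.05. The changes were modest in size, with a median log2 fold change of 0.64 for the genes that rose and -0.82 for those that fell, against -0.02 over all genes. A change over 2-fold was reached by 45 of the genes that rose and by 56 of those that fell. Of the 324 genes, 288 are protein coding. Among the genes that rose, 173 of 183 had every HFD liver above every LFD liver, as did 5.12% of all genes tested, and among those that fell 111 of 141 had every HFD liver below, as did 4.16% of all genes. Since the call itself uses these values, the shares describe the called genes and test nothing. The number of calls depended on the fit and the test. A fit of the 8 livers alone, without the spread of the aged females, called 0 genes. The likelihood ratio test of edgeR called 818 genes, DESeq2 1114 and voom with library weights 1296. The number of calls in the main fit also rested on single livers. It fell to 3 without F4.2, to 31 without F3.4, to 35 without F5.2, to 62 without F4.1 and to 80 without F2.2, and it rose to 630 without F3.3 and to 1168 without F5.1. The 3 genes called without F4.2, Ppm1k, Hectd2os and Gas2l3, were also the only ones of the 324 called in all 8 fits that left out 1 library. All 324 genes kept their sign in each of these 8 fits. They were selected by a call on the same livers, so their direction was close to fixed and this tests nothing. Without F3.4 and F5.2 together, 22 of 15711 genes were called (0.14%), 10 of them among the 324. All 323 of the called genes that could be tested there kept their direction, and 307 had an unadjusted p under 0.05. The same limit of selection holds for these counts. The genes that rose then had a median log2 fold change of 0.54 and those that fell one of -0.57, and most of the log2 change was gone in 20 of the genes that fell and in 0 of those that rose.

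**Figure D2:**
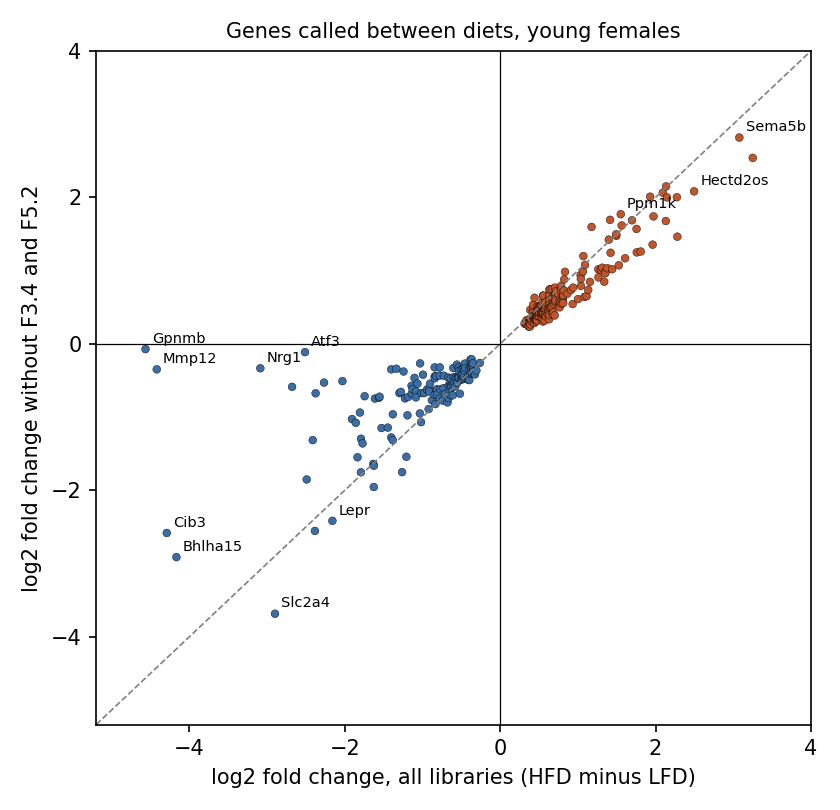
Log2 fold change (HFD over LFD) of the 323 called genes that could be tested in both fits, with all 8 young female livers on the horizontal axis and without the LFD livers F3.4 and F5.2 on the vertical axis. Every point keeps its sign, which the selection of the genes on all livers makes likely. The points far off the diagonal are genes that fell and shrank toward 0 without the pair.

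The genes called both with and without the pair were Ppm1k, Hectd2os, Asic5 and Gstk1, which rose, and Slc2a4, Lepr, Adam11, Gask1a, Pgs1 and Farp1, which fell. With 1 library left out, Ppm1k and Hectd2os were called in all 8 fits, and Asic5, Lepr, Adam11 and Pgs1 in 7. Gask1a was called in 4 of these fits, Gstk1 in 3, and Slc2a4 and Farp1 in 2. Ppm1k (ENSMUSG00000037826.5, mm10 chr6:57506502-57535468, minus strand) encodes the mitochondrial phosphatase that activates the branched-chain keto acid dehydrogenase, the committed step in the breakdown of leucine, isoleucine and valine. It stood at 175, 117, 112 and 166 CPM on the HFD and at 41.2, 47.2, 42.4 and 63.5 CPM on the LFD. The groups did not overlap, and the lowest HFD liver was well above the highest LFD liver. With means of 143 ± 32.7 and 48.6 ± 10.3 CPM (SD), the log2 fold change was 1.55 (standard error 0.17, edgeR adjusted p = 0.0023), the smallest adjusted p in the comparison. It was 1.77 without F3.4 and F5.2 (edgeR adjusted p = 0.0034). The same gene rose in aged females, from 30.2 ± 4.75 to 126 ± 14.3 CPM, and in young males, with log2 fold changes of 2.06 (edgeR adjusted p = 6e-05) and 0.78 (edgeR adjusted p = 0.0052). Gstk1, a glutathione transferase of peroxisomes and mitochondria, stood at 119, 114, 108 and 115 CPM on the HFD and at 69.4, 87.5, 77.6 and 100 CPM on the LFD. Its HFD livers were tightly grouped and all lay above the LFD livers. Gstk1 had a log2 fold change of 0.44 (standard error 0.10, edgeR adjusted p = 0.042) and 0.63 without the pair (edgeR adjusted p = 0.028). Asic5, a bile acid-sensitive ion channel, rose from 2.33 ± 0.717 to 5.28 ± 0.981 CPM (SD). Pgs1, the enzyme of phosphatidylglycerophosphate synthesis on the way to cardiolipin, stood at 9.66, 9.12, 9.02 and 8.78 CPM on the HFD and at 15.8, 13.2, 14 and 12.9 CPM on the LFD, so that the groups were apart and the HFD livers nearly equal. It fell by 0.61 on the log2 scale (standard error 0.10, edgeR adjusted p = 0.013). Hectd2os rose from 19.2 ± 7.93 to 108 ± 43.2 CPM (SD), a log2 fold change of 2.50 (standard error 0.33, edgeR adjusted p = 0.011). It is annotated as antisense to Hectd2, and because the strand setting of the counting is not given in the sources used here, its reads cannot be told from those of its sense partner. Gas2l3, a linker of the cytoskeleton chosen after its values were seen, stood at 1.96, 2.55, 2.49 and 3.4 CPM on the HFD and at 7.63, 6.13, 4.94 and 8.72 CPM on the LFD, apart in all livers, with a log2 fold change of -1.40 (standard error 0.22, edgeR adjusted p = 0.012).

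The stretch of DNA before the transcription start is shown for 3 of these 10 genes, since they were called with and without the pair: Ppm1k had the smallest p, Gstk1 had nearly equal HFD livers, and Lepr is the leptin receptor described below. The windows are the 250 bases before the start in RefSeq on GRCm38.p6, written 5′ to 3′ along the gene's own strand. RefSeq windows were matched for 7 of the 10 genes. Capitals mark the half-site AGGTCA, in either orientation, which nuclear receptors such as PPARalpha and its partner RXR use in pairs.
Ppm1k, chr6:57535488-57535737, minus strand: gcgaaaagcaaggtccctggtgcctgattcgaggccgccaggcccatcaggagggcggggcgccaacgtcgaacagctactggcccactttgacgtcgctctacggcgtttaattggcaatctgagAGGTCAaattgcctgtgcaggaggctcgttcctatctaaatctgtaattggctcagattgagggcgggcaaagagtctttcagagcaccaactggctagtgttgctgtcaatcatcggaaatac
Gstk1, chr6:42245685-42245934, plus strand: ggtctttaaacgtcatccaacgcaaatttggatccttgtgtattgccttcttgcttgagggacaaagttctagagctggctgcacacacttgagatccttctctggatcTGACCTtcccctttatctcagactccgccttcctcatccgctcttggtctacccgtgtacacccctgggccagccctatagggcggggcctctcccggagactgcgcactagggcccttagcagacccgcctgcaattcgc
Lepr, chr4:101717157-101717406, plus strand: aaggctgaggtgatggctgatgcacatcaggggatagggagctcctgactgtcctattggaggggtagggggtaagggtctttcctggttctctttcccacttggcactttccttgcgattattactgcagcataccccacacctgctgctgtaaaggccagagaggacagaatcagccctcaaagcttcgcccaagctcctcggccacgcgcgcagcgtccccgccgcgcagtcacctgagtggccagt
The half-site begins 124 bases before the start in Ppm1k and 141 bases before it in Gstk1. The letters do not occur in the Lepr window shown or in the other RefSeq window of Lepr. They are also absent from the windows of Asic5, Gask1a, Hectd2os and Pgs1, which are not shown. Of the 7 genes matched, only Ppm1k and Gstk1, both shown, thus held the letters. Pgs1 too had nearly equal HFD livers. Single half-sites are common. The shares that follow leave out windows on 1 chromosome. A gene was counted if any of its windows held the letters on either strand. This was so for 15.8% of 27025 RefSeq genes and 13.6% of the 11288 genes tested that had a window. It was so for 27 of the 135 genes with a window that rose (20%) and for 20 of the 115 that fell (17.4%). The spaced repeat AGGNCANAGGNCA, in which N is any base, was found for 0.354% of the genes tested that had a window, for 2 genes that rose and for 1 that fell. These matches describe letters only.

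In the lists below, counts of called members are to be read against the shares over all genes, 1.16% higher and 0.896% lower. No list was tested as a set, and 1 call in a list describes that gene only. Genes that carry fatty acids into mitochondria were among those that rose. Of the 7 measured members of the carnitine shuttle, 3 rose and none fell, and all 7 had positive log2 fold changes, with a median of 0.63 against -0.02 over all genes. The summed level of the shuttle was 2120, 1950, 1910 and 2070 CPM on the HFD and 904, 1400, 1410 and 1670 CPM on the LFD, with no overlap. Slc25a20, the carrier that swaps acylcarnitines for carnitine across the inner membrane, stood at 109, 91.8, 120 and 142 CPM on the HFD and at 57.1, 72.6, 79 and 75.4 CPM on the LFD. The lowest HFD liver was above the highest LFD liver, and the log2 fold change was 0.71 (standard error 0.14, edgeR adjusted p = 0.026). Cpt2, which turns acylcarnitines back into acyl-CoA, stood at 144, 133, 135 and 153 CPM on the HFD and at 77.3, 94, 102 and 111 CPM on the LFD. Its groups were again apart, with a log2 fold change of 0.56 (standard error 0.13, edgeR adjusted p = 0.042). Crat, the acetyltransferase for short chains, rose from 46.6 ± 5.68 to 82.6 ± 19.2 CPM (SD). Cpt1a, the rate-limiting outer membrane enzyme, did not pass the test. Its levels of 568, 483, 643 and 588 CPM on the HFD and 315, 443, 410 and 529 CPM on the LFD overlapped through F5.2, with a log2 fold change of 0.43 (edgeR adjusted p = 0.22). In aged females Cpt1a rose by 1.03 (edgeR adjusted p = 0.0078).

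In mitochondrial beta-oxidation, 6 of 19 members rose and none fell, 18 of 19 had positive log2 fold changes, and the median was 0.39. The 6 were Decr1, Hadh, Eci1, Acad11, Acadm and Acaa2. Acadm, the medium-chain acyl-CoA dehydrogenase, stood at 460, 382, 378 and 537 CPM on the HFD and at 238, 297, 288 and 310 CPM on the LFD. No LFD liver reached the lowest HFD liver, and the log2 fold change was 0.63 (standard error 0.15, edgeR adjusted p = 0.042). Hadh, the dehydrogenase of medium- and short-chain hydroxyacyl-CoA, stood at 403, 386, 413 and 467 CPM on the HFD and at 276, 233, 313 and 299 CPM on the LFD. It too was apart in all livers, with a log2 fold change of 0.57 (standard error 0.11, edgeR adjusted p = 0.025). Decr1 and Eci1, which rearrange the double bonds of unsaturated chains, had log2 fold changes of 0.64 and 0.69 (edgeR adjusted p = 0.022 and 0.034). Decr1 was apart in all livers, whereas Eci1 in the HFD liver F2.3 (73.4 CPM) lay just below the LFD liver F5.1 (73.7 CPM). Acadl, Acadvl and Hadha, the enzymes for long chains, had smaller log2 fold changes of 0.36, 0.36 and 0.34 that did not pass the test (edgeR adjusted p = 0.093, 0.084 and 0.086).

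Peroxisomal beta-oxidation had 4 of 20 members that rose and none that fell, with a median log2 fold change of 0.44. Hsd17b4, a multifunctional enzyme of the pathway, stood at 484, 424, 502 and 570 CPM on the HFD and at 337, 338, 359 and 353 CPM on the LFD. The LFD livers were nearly equal and all lay below the HFD livers, with a log2 fold change of 0.51 (standard error 0.11, edgeR adjusted p = 0.028). Ech1, an isomerase, rose from 168 ± 29.5 to 267 ± 49.8 CPM (SD). Acot8, a peroxisomal thioesterase, had a log2 fold change of 0.58 (edgeR adjusted p = 0.05, rounded up). Ehhadh, the other multifunctional enzyme and a textbook target of PPARalpha, had a log2 fold change of -0.18 (edgeR adjusted p = 0.58) and levels of 407 to 638 CPM on the HFD and 466 to 725 CPM on the LFD. Microsomal omega-oxidation had a median log2 fold change of 0.39, with 7 of 8 members positive and 4 at an unadjusted p under 0.05, but no member was called by either edgeR test, while DESeq2 called 1 higher and 1 lower and voom 1 lower. Cyp4a10 and Cyp4a14, the omega-hydroxylases, had log2 fold changes of 0.75 and 0.72 with overlapping groups (edgeR adjusted p = 0.19 and 0.26), and near-identical relatives make their counts uncertain.

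**Figure D3:**
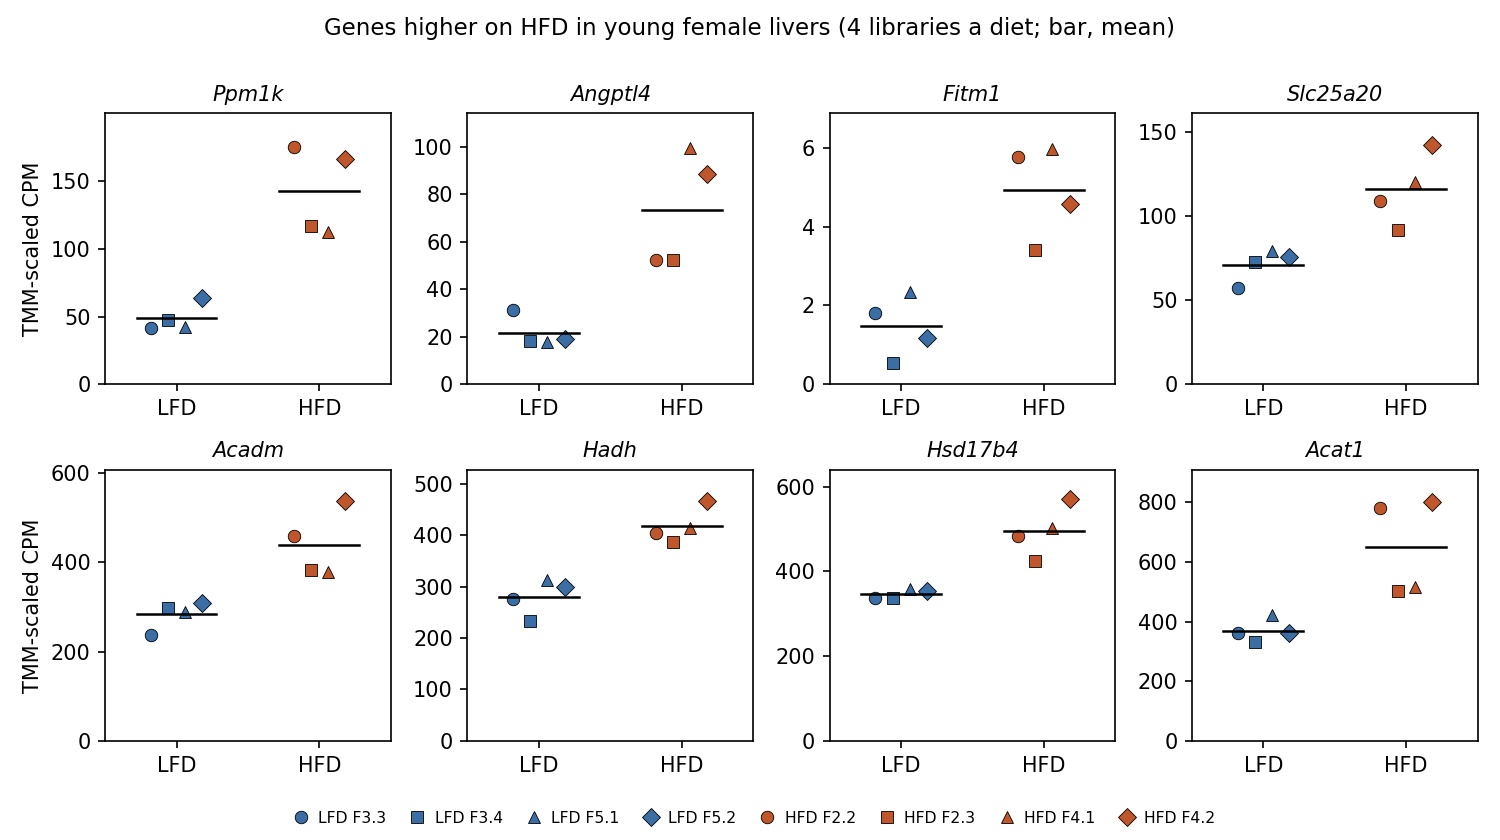
TMM-scaled CPM of 8 genes that rose on the HFD (Ppm1k, Angptl4, Fitm1, Slc25a20, Acadm, Hadh, Hsd17b4 and Acat1) in each of the 4 HFD and 4 LFD livers of young females, with group means. For each of the 8 genes, every HFD liver lies above every LFD liver.

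Ketone body synthesis followed with 2 of 6 members. Among them, Acat1, which joins acetyl-CoA units, stood at 780, 502, 515 and 803 CPM on the HFD and at 362, 331, 422 and 363 CPM on the LFD. F2.2 and F4.2 were the highest of the 8, all HFD livers were above all LFD livers, and the log2 fold change was 0.81 (standard error 0.17, edgeR adjusted p = 0.028). Among 19 PPAR regulators and classical targets, 3 rose and none fell, with a median log2 fold change of 0.47. Angptl4, a secreted inhibitor of lipoprotein lipase, stood at 52.3, 52.2, 99.6 and 88.6 CPM on the HFD and at 31.3, 18.4, 18 and 19 CPM on the LFD. It was apart in all livers, with F3.3 well above the other LFD livers and with F4.1 and F4.2 well above the other HFD livers. The log2 fold change was 1.76 (standard error 0.36, edgeR adjusted p = 0.027). In the aged females it was 1.01 (edgeR adjusted p = 0.086) and in young males 0.25 (edgeR adjusted p = 0.69), neither past the test. Vnn1, a pantetheinase that releases a building block of coenzyme A, had a log2 fold change of 1.44 (standard error 0.33, edgeR adjusted p = 0.042), although F2.3 (52.2 CPM) lay below F5.1 (68.7 CPM). Ppara itself had a log2 fold change of 0.69 that did not pass (edgeR adjusted p = 0.11).

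Without F3.4 and F5.2 the quasi-likelihood test called no member of the carnitine, beta-oxidation, ketone and PPAR lists, although 6 of 7, 13 of 19 mitochondrial, 9 of 20 peroxisomal, 3 of 6 and 7 of 19 members had an unadjusted p under 0.05. Without this pair the likelihood ratio test called 3 members of the carnitine shuttle, 4 of mitochondrial and 1 of peroxisomal beta-oxidation, 0 of ketone body synthesis and 1 of the PPAR list, all of them higher. The medians of the lists stayed positive there. The median log2 fold change was 0.75 for the carnitine shuttle, 0.36 for mitochondrial and 0.33 for peroxisomal beta-oxidation, 0.36 for ketone body synthesis and 0.32 for the PPAR list. With all livers, the aged females had medians of 0.63, 0.49, 0.48, 0.59 and 0.59 for the same lists, and young males had medians of 0.54, 0.30, 0.39, 0.44 and 0.49. Of the 9 called members of these lists with a RefSeq window, 1 held the half-site AGGTCA (11.1%) and 0 held the repeat.

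In fatty acid uptake and activation, the quasi-likelihood test called 1 of 17 members, which fell, while 12 were positive and the median log2 fold change was 0.36. The likelihood ratio test called 3 of the 17 higher and 1 lower, and DESeq2 called 4 higher and 1 lower. The member that fell was Acsl4, an acyl-CoA synthetase for arachidonic acid, by 0.78 on the log2 scale (standard error 0.19, edgeR adjusted p = 0.046), and its log2 fold change was -0.43 without F3.4 and F5.2 (edgeR adjusted p = 0.36). F3.4 was its highest liver with 135 CPM, and F5.1 with 65.9 CPM lay within the HFD range of 47.3 to 76.3 CPM. Acsl1, the main hepatic acyl-CoA synthetase, and Fabp1, the liver fatty acid-binding protein, had log2 fold changes of 0.70 and 0.64 (edgeR adjusted p = 0.087 and 0.11) with overlapping groups. Cd36, the fatty acid translocase, stood at 180, 110, 157 and 169 CPM on the HFD and at 102, 160, 126 and 147 CPM on the LFD. The groups were intermingled, with a log2 fold change of 0.20 (standard error 0.16, edgeR adjusted p = 0.51).

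For storage and export, 2 of 14 lipid droplet genes rose and none fell. Fitm1, which helps droplets bud from the endoplasmic reticulum, stood at 5.76, 3.4, 5.98 and 4.58 CPM on the HFD and at 1.81, 0.551, 2.35 and 1.17 CPM on the LFD. Every HFD liver lay above every LFD liver, at a 3.39-fold difference (log2 fold change 1.76, standard error 0.35, edgeR adjusted p = 0.025). Without F3.4 and F5.2, its lowest livers, the log2 fold change was 1.25 (edgeR adjusted p = 0.14). Without this pair the quasi-likelihood test called no lipid droplet gene, and the likelihood ratio test called 1 higher. Bscl2, which encodes the droplet scaffold seipin, rose from 25.6 ± 3.01 to 33.3 ± 2.95 CPM (SD). Plin2, the main coat protein of hepatic droplets, did not pass the test, with 527, 377, 664 and 578 CPM on the HFD and 331, 413, 357 and 509 CPM on the LFD (log2 fold change 0.41, edgeR adjusted p = 0.25). Plin4 had a larger log2 fold change of 1.5 but a wide spread, from 6.34 to 20.4 CPM on the HFD (edgeR adjusted p = 0.14). The quasi-likelihood test called none of 28 genes of triglyceride synthesis and breakdown, with 8 at an unadjusted p under 0.05. DESeq2 and the likelihood ratio test each called 1 higher and 2 lower, and voom called 1 higher and 1 lower. By the quasi-likelihood test, 1 of 24 genes of lipoprotein assembly and clearance rose, Lcat, the enzyme that esterifies plasma cholesterol, with a log2 fold change of 0.40 (edgeR adjusted p = 0.045).

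Genes of de novo lipogenesis had a median log2 fold change of -0.96, but the LFD livers differed widely among themselves. The quasi-likelihood test called none of the 23 members, with 9 at an unadjusted p under 0.05, and 2 members had positive log2 fold changes. By the likelihood ratio test 6 were lower, by DESeq2 5 were lower, and voom called 1 higher and 1 lower. Fasn, fatty acid synthase, stood at 744, 803, 990 and 747 CPM on the HFD and at 6450, 740, 2840 and 810 CPM on the LFD. F3.3 and F5.1 were far above all HFD livers, while F3.4 and F5.2 were within or just below the HFD range. Elovl6, which elongates palmitate, had the same 2 livers on top, with 80, 132, 149 and 86.7 CPM on the HFD and 1160, 153, 504 and 164 CPM on the LFD. Pnpla3, a lipid hydrolase under SREBP-1c, stood at 2.16, 4.41, 7.48 and 2.54 CPM on the HFD and at 88.1, 2.63, 29.2 and 3.53 CPM on the LFD. Their log2 fold changes were -1.72, -2.15 and -2.89 (edgeR adjusted p = 0.085, 0.051 and 0.10). Scd1, stearoyl-CoA desaturase, was abundant at 11700, 9900, 9120 and 3070 CPM on the HFD and 33100, 11900, 12900 and 14700 CPM on the LFD. It was lower in every HFD liver, though F2.2 came close to F3.4, and its log2 fold change of -1.10 did not pass (edgeR adjusted p = 0.16).

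Without F3.4 and F5.2, 5 members of the list were called lower and the median was -1.36. Fasn then had a log2 fold change of -2.50 (edgeR adjusted p = 0.0048), Elovl6 one of -2.90 (edgeR adjusted p = 0.01), Acaca, acetyl-CoA carboxylase, one of -1.95 (edgeR adjusted p = 0.019), and Pnpla3 one of -3.81 (edgeR adjusted p = 0.046). Pklr, pyruvate kinase of the liver, which had 262, 202, 357 and 291 CPM on the HFD and 886, 126, 537 and 131 CPM on the LFD, was called there at -1.36 (edgeR adjusted p = 0.015), while with all livers it had a log2 fold change of -0.6 that did not pass (edgeR adjusted p = 0.48). These calls compare the 4 HFD livers with F3.3 and F5.1, the LFD livers in which the genes were highest. In aged females, Fasn fell by 2.00 and Elovl6 by 2.77 on the log2 scale (edgeR adjusted p = 0.029 and 0.0098), with Fasn at 4650 ± 1500 CPM on the LFD and 1160 ± 317 CPM on the HFD (SD). With all livers, cholesterol synthesis and uptake had a median of 0.06, and 1 of 26 members had an unadjusted p under 0.05. None was called by either edgeR test, DESeq2 or voom. Without F3.4 and F5.2 the median was -0.37 and 8 members had an unadjusted p under 0.05. Neither edgeR test called any of them there. Of 21 genes of bile acid synthesis and transport, 1 was called with all livers, Cyp2c70, which makes the muricholic acids of rodents. It fell from 867 ± 165 to 553 ± 37.7 CPM (SD, log2 fold change -0.65, standard error 0.15, edgeR adjusted p = 0.044).

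Of 20 genes for the breakdown of branched-chain amino acids, 2 rose and none fell, 19 were positive and the median log2 fold change was 0.24. When F3.4 and F5.2 were left out, 1 was called and the median was 0.17. Beside Ppm1k, described above, Mccc2, a subunit of the carboxylase in leucine breakdown, rose. Mccc2 stood at 76.4, 79.6, 74.8 and 77.3 CPM on the HFD and at 58.4, 45.4, 64.8 and 53.3 CPM on the LFD, apart in all livers, with a log2 fold change of 0.47 (standard error 0.10, edgeR adjusted p = 0.028). Bckdhb, a subunit of the dehydrogenase that Ppm1k activates, had a log2 fold change of 0.26 that did not pass (edgeR adjusted p = 0.083), although its groups were apart. Tryptophan and NAD synthesis had 3 of 15 members that rose, none that fell and 14 positive. Kmo, which hydroxylates kynurenine, stood at 298, 345, 318 and 327 CPM on the HFD and at 248, 203, 248 and 223 CPM on the LFD. The groups were far apart compared with their spread, with a log2 fold change of 0.48 (standard error 0.09, edgeR adjusted p = 0.024). Ido2, an enzyme of the first step, and Sirt3, the mitochondrial NAD-dependent deacetylase, had log2 fold changes of 0.70 and 0.56 (edgeR adjusted p = 0.042 and 0.025), and that of Ido2 was 0.39 without F3.4 and F5.2 (edgeR adjusted p = 0.25). Tdo2, the main hepatic enzyme of the first step, was apart too, with 833 to 1440 CPM on the HFD and 611 to 833 CPM on the LFD at the printed precision, but did not pass (edgeR adjusted p = 0.075).

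Of 26 genes of insulin and leptin signalling, 1 fell and 1 rose, against 0.896% and 1.16% of all genes. Lepr (ENSMUSG00000057722.17, mm10 chr4:101717404-101815352, plus strand), the leptin receptor, stood at 7.82, 10.7, 12 and 6.86 CPM on the HFD and at 62.7, 42.7, 37.3 and 24.7 CPM on the LFD. F4.1, the highest HFD liver, was far below F5.2, the lowest LFD liver. The log2 fold change was -2.16 (standard error 0.37, edgeR adjusted p = 0.016), a 4.47-fold lower level, and it was -2.42 without F3.4 and F5.2 (edgeR adjusted p = 0.031). Lepr also fell in aged females and in young males, by 2.96 on the log2 scale in each (edgeR adjusted p = 0.001 and 0.0018). Foxo1, the transcription factor that insulin keeps out of the nucleus, stood at 68.7, 77.4, 77 and 77.6 CPM on the HFD and at 55.5, 45.7, 44.3 and 37.8 CPM on the LFD. All HFD livers were higher, with a log2 fold change of 0.71 (standard error 0.14, edgeR adjusted p = 0.025). Among glucose transport and glycolysis genes, 1 of 26 was called, Slc2a4, the insulin-responsive glucose transporter GLUT4, which is scarce in liver. It stood at 0.994, 0.589, 1.1 and 0.495 CPM on the HFD and at 17.6, 2.18, 3.31 and 1.14 CPM on the LFD. F3.3 alone was far above the rest, and F5.2 was close to F4.1. The log2 fold change was -2.90 with all livers (standard error 0.69, edgeR adjusted p = 0.045) and -1.44 without F3.3, where it was no longer called. The quasi-likelihood test called none of 18 genes of gluconeogenesis and glycogen, with 4 at an unadjusted p under 0.05. By the likelihood ratio test 1 was higher, and DESeq2 and voom each called 1 higher and 1 lower.

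Id1 and Id3 fell. They encode helix-loop-helix proteins without a DNA-binding region, which respond to bone morphogenetic protein (BMP) signals. Id1 stood at 11, 6.24, 6.22 and 4.95 CPM on the HFD and at 30.4, 25.2, 17.7 and 25.4 CPM on the LFD. Id3 stood at 42.4, 26.1, 20.6 and 18.4 CPM on the HFD and at 68, 81.4, 65.8 and 65.2 CPM on the LFD. In both genes the HFD liver F2.2 was the highest of its group and still below all LFD livers. The log2 fold changes were -1.79 (standard error 0.28, edgeR adjusted p = 0.012) and -1.38 (standard error 0.26, edgeR adjusted p = 0.022), and -1.75 and -1.31 without F3.4 and F5.2 (edgeR adjusted p = 0.054 and 0.11). Other genes with a known response to BMP signals were chosen after their values were seen. Id2 fell from 162 ± 38 to 85.7 ± 21.7 CPM (SD, edgeR adjusted p = 0.03), while Smad7 and Smad9 had log2 fold changes of -0.88 and -1.16 that did not pass (edgeR adjusted p = 0.082 and 0.052). Hamp, the iron hormone hepcidin and another such gene, stood at 416, 402, 265 and 177 CPM on the HFD and at 638, 579, 770 and 538 CPM on the LFD. Its groups were apart, at a log2 fold change of -1 that missed the threshold (standard error 0.25, edgeR adjusted p = 0.05, rounded down). Ihh, the ligand Indian hedgehog, stood at 0.795, 0.523, 0.98 and 0.649 CPM on the HFD and at 3.53, 2.93, 1.19 and 1.53 CPM on the LFD, low in all livers and apart, with a log2 fold change of -1.63 (standard error 0.34, edgeR adjusted p = 0.029). Ihh also fell in aged females and in young males, by 2.17 and 1.83 on the log2 scale (edgeR adjusted p = 0.0057 and 0.0017).

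**Figure D4:**
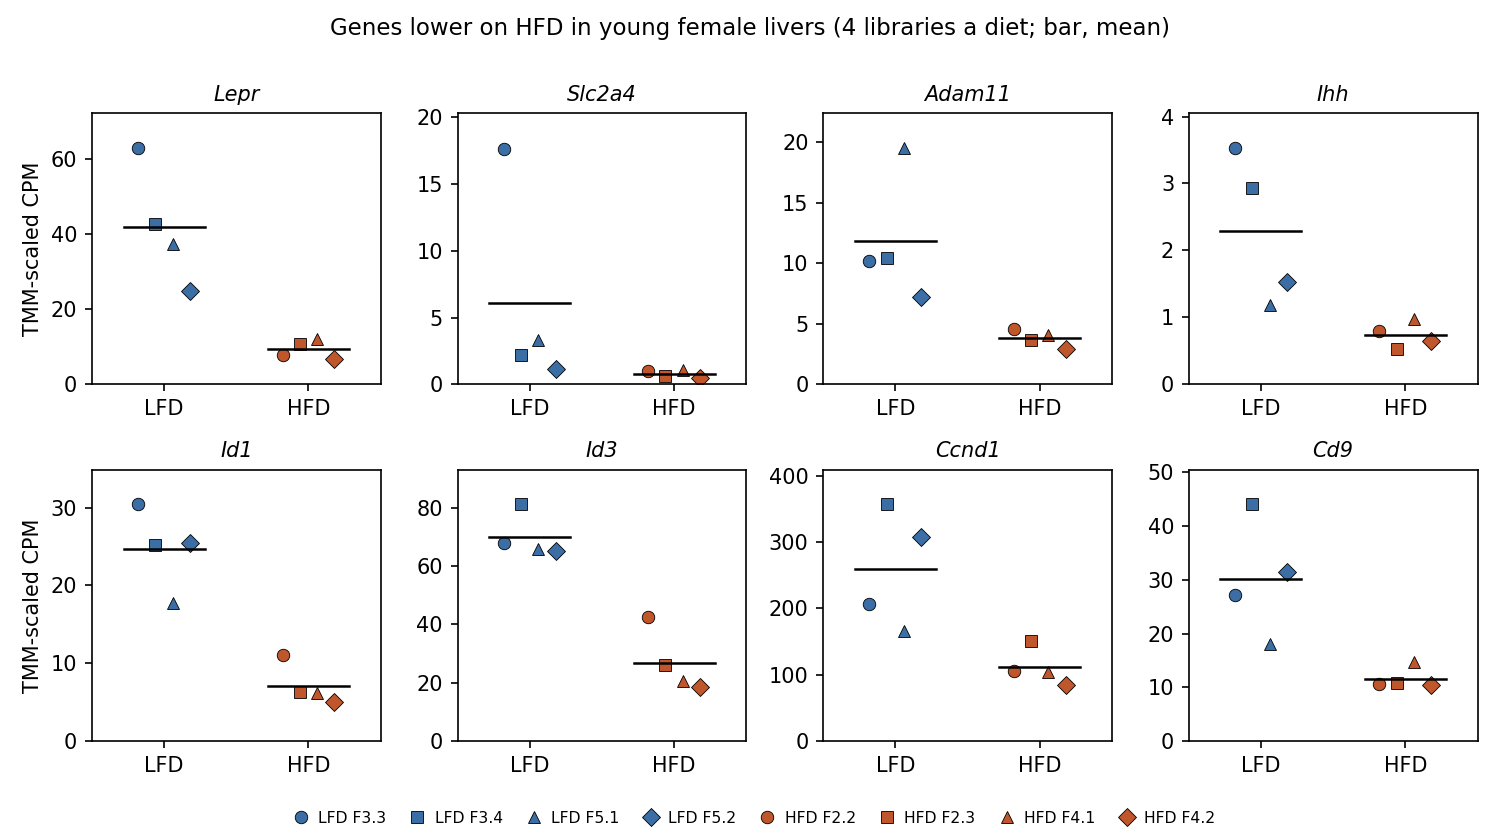
TMM-scaled CPM of 8 genes that fell on the HFD (Lepr, Slc2a4, Adam11, Ihh, Id1, Id3, Ccnd1 and Cd9) in each of the 4 HFD and 4 LFD livers of young females, with group means. All 8 are apart between the diets, and the mean of Slc2a4 on the LFD is set by F3.3 (17.6 CPM).

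Xenobiotic metabolism had 4 of 38 members that rose and 1 that fell, and oxidative stress and glutathione genes 2 of 33 that rose and 2 that fell. Ugt3a1, a sugar transferase, stood at 82.6, 87.9, 59 and 83.9 CPM on the HFD and at 35.3, 24.6, 48.2 and 22.3 CPM on the LFD. The groups were apart, and F3.4 and F5.2 were the lowest of all. This gave a log2 fold change of 1.27 (standard error 0.20, edgeR adjusted p = 0.012) and 0.91 without this pair (edgeR adjusted p = 0.052). Ephx2, the soluble epoxide hydrolase, Cyp2j5, an epoxygenase of arachidonic acid, and Sult1b1, a sulfotransferase, rose by 0.63, 0.63 and 0.78 on the log2 scale (edgeR adjusted p = 0.026, 0.042 and 0.03). Cyp2j5 had a log2 fold change of 0.34 without the pair (edgeR adjusted p = 0.21). Prdx6, a peroxiredoxin, rose with Gstk1. Nfe2l2, which encodes the oxidative stress factor NRF2, stood at 83, 71.1, 69.3 and 76.3 CPM on the HFD and at 98.1, 122, 95.5 and 117 CPM on the LFD. It was lower in all HFD livers, with a log2 fold change of -0.53 (standard error 0.11, edgeR adjusted p = 0.028). Gstm3 and Cyp2c55 also fell, but their high levels lay mostly in F3.4 and F5.2. Gstm3 was at 299 and 286 CPM in this pair against 76.2 and 30.4 CPM in F3.3 and F5.1, and its log2 fold change went from -2.37 to -0.68 without the pair (edgeR adjusted p = 0.041 and 0.54).

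Of 26 acute phase proteins, 1 rose, Saa4, a constitutive serum amyloid A of lipoproteins. Saa4 stood at 323, 316, 394 and 323 CPM on the HFD and at 186, 106, 220 and 105 CPM on the LFD. All HFD livers were higher, and F3.4 and F5.2 were lowest. The log2 fold change was 1.13 (standard error 0.20, edgeR adjusted p = 0.017), and 0.74 without this pair (edgeR adjusted p = 0.054). In the interferon list 1 of 32 rose, Gbp6, and Gbp10, a close relative outside the list, rose by 1.81 on the log2 scale (edgeR adjusted p = 0.044). The HFD liver F2.3 was highest for both, and reads shared between these guanylate-binding proteins make each count uncertain. Il6ra, the receptor of interleukin 6, rose from 42.8 ± 16.4 to 95.4 ± 14.1 CPM (SD, log2 fold change 1.16, standard error 0.28, edgeR adjusted p = 0.045), and was the 1 of 36 chemokine, cytokine and innate receptor genes that rose, while Ccr2 was the 1 that fell. Beside the other rises, the summed level of 9 red cell and platelet markers was 81.6 to 122 CPM on the HFD and 47.3 to 61.1 CPM on the LFD, and Hbb-bs, a beta-globin, rose by 0.78 on the log2 scale (edgeR adjusted p = 0.05, rounded up). The part of blood content in other results was not tested.

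By the quasi-likelihood test, macrophage genes were the cell type list with the most calls. Of 17 monocyte and macrophage markers, 5 fell and 0 had a positive log2 fold change, with a median of -0.65. The summed level was 327, 265, 283 and 267 CPM on the HFD and 442, 589, 352 and 508 CPM on the LFD, so that the groups were apart and F3.4 and F5.2 highest. Gpnmb, of lipid-associated macrophages, stood at 0.422, 0.915, 0.598 and 0.495 CPM on the HFD and at 0.989, 30.4, 0.268 and 25.4 CPM on the LFD. Mmp12, macrophage elastase, stood at 0.845, 0.36, 1.03 and 0.68 CPM on the HFD and at 0.96, 31.9, 0.923 and 29.8 CPM on the LFD. In both genes F3.3 and F5.1 were at the level of the HFD livers and the pair was far higher. Their log2 fold changes of -4.56 and -4.42 (edgeR adjusted p = 0.041 for both) became -0.07 and -0.35 without the pair (edgeR adjusted p = 0.98 and 0.88). Trem2, a lipid receptor of such macrophages, went from -2.27 to -0.53. Ccr2, the chemokine receptor of monocytes, and Cd9, a tetraspanin, were lower on the HFD against each LFD liver. Ccr2 stood at 2.11, 1.93, 1.7 and 2.16 CPM on the HFD and at 3.36, 7.58, 2.86 and 5.32 CPM on the LFD, and Cd9 at 10.6, 10.8, 14.7 and 10.4 CPM on the HFD and at 27.2, 44.2, 18 and 31.5 CPM on the LFD. Their log2 fold changes were -1.28 and -1.38 (edgeR adjusted p = 0.025 and 0.017), and -0.66 and -0.96 without the pair (edgeR adjusted p = 0.18 and 0.10). Of the 14 Kupffer cell markers, 1 was called, Id3, which other liver cells express too, and the list median was 0.08.

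The medians of the matrix and cell cycle lists moved with F3.4 and F5.2. Of 33 collagens and other matrix genes 1 was called lower (Tnc, tenascin C), 4 had positive log2 fold changes, and the median was -0.78 with all livers and 0.02 without the pair. The summed level of this list did not follow the pair. It was 5260, 4890, 4870 and 4900 CPM on the HFD and 5590, 5480, 5480 and 4510 CPM on the LFD. Tnc went from a log2 fold change of -1.55 to -0.72 without the pair (edgeR adjusted p = 0.042 and 0.42). Col1a1, the main fibrillar collagen, stood at 18.3, 19.5, 17.8 and 12.1 CPM on the HFD and at 18.5, 154, 10.9 and 97.4 CPM on the LFD. Its log2 fold change was -2.05 (edgeR adjusted p = 0.071) and 0.20 without the pair (edgeR adjusted p = 0.84), so that the direction turned. Among 30 genes of matrix turnover and fibrosis signals, 3 fell: Pdgfa, Mmp12 and Trem2. Pdgfa, a growth factor for stellate cells, had its 2 highest levels in F3.4 and F5.2 (11.8 and 12.6 CPM) and went from a log2 fold change of -0.99 to -0.42 without them. Cell cycle genes had a median of -1.46 with all livers and 0.56 without the pair, and 1 of 33 was called. That gene was Ccnd1, cyclin D1, which stood at 105, 151, 104 and 83.8 CPM on the HFD and at 206, 358, 166 and 307 CPM on the LFD. Unlike Mki67, which had 6.53, 7.94, 5.93 and 2.84 CPM on the HFD and 6.02, 25.1, 4.2 and 57.1 CPM on the LFD, Ccnd1 was lower in every HFD liver than in every LFD liver. Its log2 fold change was -1.22 (standard error 0.23, edgeR adjusted p = 0.022) and -0.74 without the pair (edgeR adjusted p = 0.17). In aged females Ccnd1 fell by 1.19 on the log2 scale (edgeR adjusted p = 0.0087), while in young males it had a log2 fold change of 0.30 (edgeR adjusted p = 0.69).

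Cholangiocyte and gallbladder markers had 2 of 17 members that fell, Sox9 and Ehf, transcription factors of duct epithelium. Sox9 stood at 6.31, 6.34, 5.28 and 5.44 CPM on the HFD and at 8.95, 13.1, 6.88 and 12.4 CPM on the LFD, apart in all livers and highest in F3.4 and F5.2. The log2 fold change was -0.82 (standard error 0.20, edgeR adjusted p = 0.047) and -0.44 without the pair (edgeR adjusted p = 0.42). The summed level of the list was 421 to 518 CPM on the HFD and 514, 818, 380 and 780 CPM on the LFD. The quasi-likelihood test called no member of the hepatocyte, periportal, pericentral, stellate and fibroblast, endothelial, T and NK cell or B and plasma cell lists, in which 5 of 13, 1 of 12, 4 of 12, 7 of 17, 0 of 16, 1 of 18 and 2 of 16 members had an unadjusted p under 0.05. In the stellate and fibroblast list, with a median log2 fold change of -0.44, the likelihood ratio test called 3 members lower and DESeq2 4. Both also called 1 pericentral marker higher and 1 B and plasma cell marker lower, and DESeq2 called 1 hepatocyte marker higher. Voom called 3 hepatocyte and 3 pericentral markers higher and 1 periportal and 6 stellate markers lower. Pericentral markers summed to 10300 to 17300 CPM in the HFD livers and in F3.3 and F5.1, and to 4830 and 5720 CPM in F3.4 and F5.2. Of the genes with a known female bias in liver, 1 of 44 was called, Adam11, which fell, and of those with a male bias 2 of 28 were, Cyp2d40, which rose, and Ihh, which fell.

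**Figure D5:**
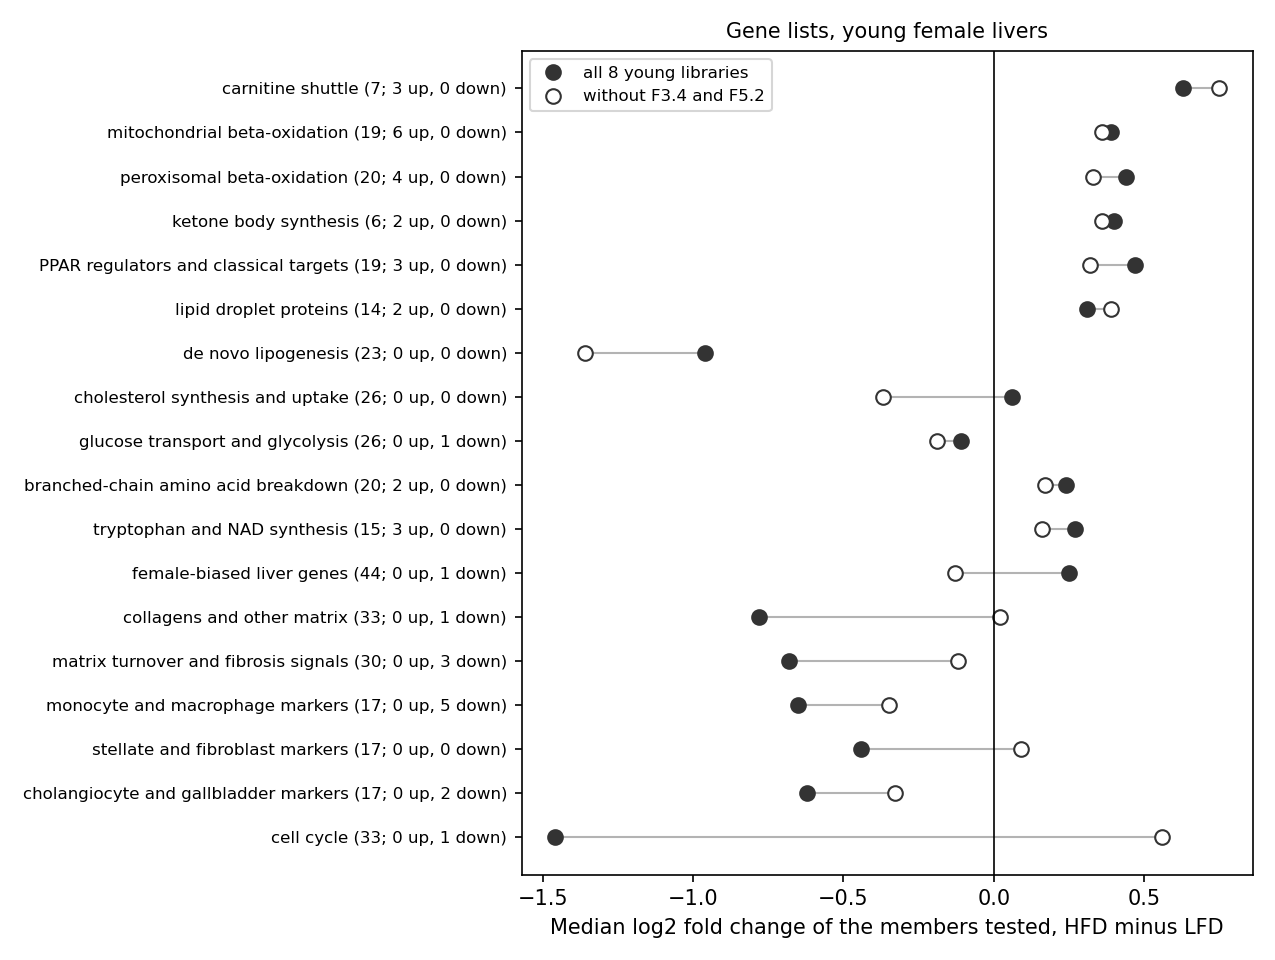
Median log2 fold change (HFD over LFD) of the members of 18 gene lists in young females, with all 8 livers (filled) and without the LFD livers F3.4 and F5.2 (open), beside the number of members called. The oxidation, ketone and PPAR lists lie above 0 in both, and de novo lipogenesis lies further below 0 without the pair. The collagen, stellate and fibroblast, and cell cycle medians move from below 0 to above it without the pair. The female-biased and cholesterol medians move from above 0 to below it.

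Of 33 genes of the unfolded protein and integrated stress response, 3 fell and none rose. Dnajb9, a chaperone of the endoplasmic reticulum under IRE1 and XBP1, stood at 51.4, 72.2, 42.6 and 51.6 CPM on the HFD and at 76.8, 96.2, 125 and 114 CPM on the LFD. The groups were apart with F5.1 the highest, and the log2 fold change of -0.92 (standard error 0.20, edgeR adjusted p = 0.032) was close to that without F3.4 and F5.2, -0.89 (edgeR adjusted p = 0.14). Atf3 and Nupr1, induced by the integrated stress response, were at 29.8 and 15.9 CPM and at 7.83 and 7.63 CPM in F3.4 and F5.2. In F3.3 and F5.1 Atf3 was at 2.34 and 2.44 CPM, within the HFD range of 1.98 to 2.48 CPM, and its log2 fold change went from -2.51 to -0.11 without the pair. That of Nupr1 went from -1.56 to -0.74 (edgeR adjusted p = 0.05, rounded up, and 0.48). Atf3 was also the 1 of 22 immediate early genes that was called. No heat shock gene of 24 and no circadian clock gene of 19 was called by either edgeR test, with 1 of each at an unadjusted p under 0.05, while DESeq2 called 1 heat shock gene lower and voom 1 clock gene higher. In sphingolipid metabolism 1 of 29 fell, Sptlc2, a subunit of the enzyme that opens ceramide synthesis. Sptlc2 stood at 27.2, 27, 30 and 24.9 CPM on the HFD and at 35.4, 40.8, 38.9 and 35.6 CPM on the LFD, narrow in both groups and apart, with a log2 fold change of -0.46 (standard error 0.09, edgeR adjusted p = 0.026). It fell by 0.49 in aged females (edgeR adjusted p = 0.0084) and had a log2 fold change of 0.03 in young males (edgeR adjusted p = 0.91).

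The remaining large changes were in genes of scattered roles, mostly at low levels. Among the rises, Sema5b, a semaphorin guidance protein, had the largest log2 fold change of the genes named by size, 3.08 (standard error 0.54, edgeR adjusted p = 0.017). Its levels were 3.08, 0.817, 5.64 and 6.52 CPM on the HFD and at 0.339, 0.25, 0.804 and 0.519 CPM on the LFD, with F2.3 barely above F5.1. Gpr12, an orphan receptor, Grid1, a glutamate receptor subunit, and Wfdc2, a secreted protein with a protease inhibitor fold, had log2 fold changes of 1.93, 1.5 and 1.49 at means of 2.64 to 6.63 CPM on the HFD. Rab30, a small GTPase of the Golgi, rose from 8.33 ± 1.39 to 22 ± 6.35 CPM (SD, edgeR adjusted p = 0.012). Cyp2d40, a cytochrome P450 with close relatives, rose from 21.7 ± 10.2 to 54.9 ± 14.3 CPM, with its lowest levels in F3.4 and F5.2, and its log2 fold change went from 1.34 to 0.85 without them (edgeR adjusted p = 0.025 and 0.093). Aldh3b3, an aldehyde dehydrogenase, rose by 1.35 on the log2 scale in young females and had a log2 fold change of -0.57 in aged females (edgeR adjusted p = 0.025 and 0.18). Hnf4aos, antisense to Hnf4a and subject to the same limit as Hectd2os, rose by 1.53 (edgeR adjusted p = 0.049). Among the falls, Adam11, a protease relative without catalytic residues, stood at 4.6, 3.63, 4.11 and 2.91 CPM on the HFD and at 10.2, 10.4, 19.5 and 7.19 CPM on the LFD. All LFD livers were higher, with F5.1 highest, and the log2 fold change was -1.63 (standard error 0.29, edgeR adjusted p = 0.017) in young females, -2.29 in aged females and -1.82 in young males. Jazf1, a zinc finger protein, fell by 1.63 on the log2 scale (edgeR adjusted p = 0.012) and by 1.64 without F3.4 and F5.2. Bhlha15, a factor of secretory cells, had the most negative log2 fold change of the genes named by size, -4.17 (standard error 0.86, edgeR adjusted p = 0.028), at 0 to 0.174 CPM on the HFD and 0.678 to 4.78 CPM on the LFD. Hr, a corepressor, Sema3b, Aldh18a1, of proline synthesis, Ccdc149 and Tes, a LIM protein of focal adhesions, had log2 fold changes of -1.91 to -1.74. In each of them F3.4 and F5.2 were the highest livers, and without the pair the log2 fold change was between -1.36 and -0.72.

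Young females were then set beside aged females and young males, which share no library with them. The aged females were in the same fit and shared its estimate of the spread, so their calls are not independent of those in young females. In aged females, 1244 of 15733 genes were called (7.91%). Of the genes that rose in young females, 178 of 183 had a positive log2 fold change in aged females and 119 were called there, with a median of 0.55. Of the genes that fell, 125 of 141 were negative and 50 were called, with a median of -0.37. No gene passed the test of the difference between the young and aged responses (smallest edgeR adjusted p = 0.56, 1059 genes at an unadjusted p under 0.05), and the likelihood ratio test of edgeR called 10. In young males, 926 of 16077 genes were called (5.76%). There 157 of the 180 genes that rose and could be tested were positive and 52 called, with a median of 0.32, and 90 of the 139 that fell were negative and 13 called, with a median of -0.11.

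The difference between the female and male responses passed the test for 56 of 15383 genes (0.364%). In 44 of them the female log2 fold change was below the male one and in 12 above it. Cd36 was one of the 44, since it rose in young males by 2.50 on the log2 scale (edgeR adjusted p = 0.0077), from 31.5 ± 12.1 to 178 ± 123 CPM (SD), whereas in young females it was already at 134 ± 25.3 CPM on the LFD. Levels of the sexes were scaled apart and are set side by side only. The female minus male difference was -2.31 (standard error 0.50, edgeR adjusted p = 0.043). Cidec, a droplet fusion protein, had a log2 fold change of -1.49 in young females (edgeR adjusted p = 0.27) and rose by 4.43 in young males (edgeR adjusted p = 0.0083), a difference of -5.92. Its female values were 0.671, 0.523, 1.96 and 1.24 CPM on the HFD and 0.367, 4.78, 0.596 and 6.62 CPM on the LFD, highest in F3.4 and F5.2, and without the pair the female log2 fold change was 1.2. Aldh3a2, which oxidises fatty aldehydes, rose by 1.62 in young males against a log2 fold change of 0.50 in young females that did not pass. In the other direction, Klf9, a transcription factor that glucocorticoid and thyroid hormone induce, rose in young females. It stood at 196, 162, 182 and 171 CPM on the HFD and at 118, 94.3, 67.3 and 66.8 CPM on the LFD, apart in all livers, with a log2 fold change of 1.04 (standard error 0.17, edgeR adjusted p = 0.012). In young males the log2 fold change was -0.27 (edgeR adjusted p = 0.39), and the difference was 1.29 (standard error 0.24, edgeR adjusted p = 0.036). Slc8b1, the mitochondrial sodium-calcium exchanger, followed with a difference of 1.14. Of the 56 genes, 10 were also among the 324, and 4 of these had risen. The extremes were Sprr1a, an epithelial barrier protein, at -10.35 (standard error 2.14) and the pseudogene Zfp-ps at 5.1 (standard error 1.12), at most 3.7 and 0.478 CPM in any young female liver and each with an edgeR adjusted p of 0.043. The quasi-likelihood test called no difference between the sexes without F3.4 and F5.2, with 1357 genes at an unadjusted p under 0.05, and with 1 library left out the number ran from 1 to 594.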

How the data were processed

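The 8 livers were part of 2 deposited tables, 1 for each sex, that hold values of 32 libraries. The authors sequenced polyA libraries (KAPA mRNA HyperPrep) as paired reads, used STAR for alignment to mm10, and obtained gene counts from uniquely mapped reads with featureCounts. For versions, gene annotation and strand setting, the entry is: not given in the sources used here. Raw counts per gene that the authors deposited were used for every result. The deposited log2 CPM and log2 RPKM columns served only to check that each of the 32 count columns matched its own sample, and the deposited columns of fold changes, p-values and false discovery rates of the authors' own comparisons were not used. No column belonged to a sample of another series.

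As in the study, a gene needed over 10 counts in 2 or more of the 16 F libraries, which left out 3 of 15736 genes. Counts were scaled by TMM and tested in R 4.3.3 with the quasi-likelihood F test of edgeR 4.0.16, in 1 fit of the 4 F groups, with Benjamini-Hochberg adjustment over all genes tested and calls at an adjusted p under 0.05. The differences between the responses were tested as interactions, that of sex in a fit of all 32 libraries. Gene coordinates are those of the deposited tables. The chi-square per gene between replicate livers ran from 42.8 to 169, so that none was a duplicate and counting error is the smaller part of their spread. The code was tested on simulated counts.

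The genes named are the 12 largest rises and 12 largest falls among the called genes with a standard symbol, a mean of at least 1 CPM and groups that did not overlap, up to 6 members with the smallest p and the core members of the lists described, and the extremes of the sex difference. Other genes were chosen after their values were seen: Asic5, Gask1a, Pgs1, Farp1 and Gas2l3 for their calls with libraries left out, Klf9, Slc8b1, Osbpl3 and Nrg1 for their sex difference, and those marked so in the text. Members, lists and rules were chosen with earlier results of these data known. Alternatives were RLE scaling, DESeq2 1.42.0, voom of limma 3.58.1 with library weights, the likelihood ratio test, other filters, a fit of the 8 livers alone, a robust prior, each library left out in turn, and F3.4 and F5.2 left out. The likelihood ratio test without this pair was added after the data were seen. A few single genes are not reported here. Promoter windows are those of RefSeq, without those on 1 chromosome.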

Additional observations from a re-analysis of the deposited data

Results flagged for a closer look

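The female minus male difference of the diet response on the log2 scale was called by edgeR for 13 of the genes named, by a test of the difference itself. It was -10.35 for Sprr1a, -7.77 for Mmp12, -6.77 for Gpnmb, -5.92 for Cidec, -5.06 for Osbpl3, a lipid-binding protein, -4.50 for Nrg1, a growth factor, -4.05 for Mki67, -3.22 for Hr, -2.31 for Cd36 and -1.13 for Aldh3a2, and it was 1.14 for Slc8b1, 1.29 for Klf9 and 5.1 for Zfp-ps. For Sprr1a, Mmp12, Gpnmb, Cidec, Osbpl3, Nrg1, Mki67 and Hr, the female LFD livers F3.4 and F5.2 were the 2 highest of the 8, and their part in the difference was not tested gene by gene. No sex difference was called without this pair. Osbpl3, Nrg1, Slc8b1 and Klf9 were chosen after their values were seen.

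Single livers stood far from the other 3 of their group, by the gap to the nearest liver over the whole range of the group, in 14 of 254 groups examined. Chance gives about 1 in 20. Among the LFD livers, F3.3 was high for Angptl4 (0.924), Acly (0.884), Scd1 (0.87), Slc2a4 (0.869) and Smad7 (0.847), F5.1 was high for Acot8 (0.905), and F3.4 was low for Sult1b1 (0.836). Among the HFD livers, F4.1 was high for Cd9 (0.907) and Saa4 (0.9) and low for Bhlha15 (0.889), F2.3 was high for Cyp2j5 (0.899) and low for Gpr12 (0.83), F2.2 was low for Foxo1 (0.932), and F4.2 was high for Prdx6 (0.833).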

How the results depend on the processing

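All 324 called genes kept their direction under each alternative in which they could be tested. They were selected on the same livers, so this tests nothing. The number of calls did not hold. The calls were 818 with the likelihood ratio test (409 higher and 409 lower), 1114 with DESeq2 (587 and 527), 1296 with voom and quality weights (665 and 631), 296 with RLE scaling, 324 with no filter, 452 with the stricter filter and 309 with the robust prior. A fit of the 8 livers alone called 0 genes (0 higher and 0 lower), with 2714 at an unadjusted p under 0.05. Leaving out 1 liver gave 3 to 1168 calls, 2 to 567 of them higher and 1 to 601 lower. Without F3.4 and F5.2 there were 22 calls, 6 higher and 16 lower, and the likelihood ratio test without this pair made 248, 99 of them higher and 97 among the 324. The sex difference was called for 395 genes by the likelihood ratio test, 484 by DESeq2, 56 with RLE scaling, 1 to 594 with 1 library left out and 0 without the pair, and the difference between young and aged females for 10 by the likelihood ratio test and 0 without the pair. The direction of a named gene turned in 19 of 2283 cases. Without F3.4 and F5.2 the log2 fold change became 1.34 for Sprr1a (1.35 by the likelihood ratio test), 1.2 for Cidec (1.19), 0.20 for Col1a1, 0.19 for Mki67, 0.17 for Lpl, 0.15 for Osbpl3, 0.10 for Col3a1 and 0.06 for Mup20. With 1 liver left out the log2 fold change ran from -1.45 to 0.07 for Acly and from -0.9 to 0.07 for Pklr, positive without F3.3, and Pklr was at 0.38 with voom. The cause of these shifts was not tested. No paired analysis was possible because the labels give the livers no replicate numbers that pair them across diets. With 4 livers a group, genes under about 1 CPM rest on few reads, and a change that missed the threshold is not shown to be absent.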
